A study of Mus musculus with 10 samples.

Results

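Collagens are the main structural proteins of the extracellular matrix of skeletal muscle. 44 of the 49315 genes in the count table are protein-coding collagen genes, chosen by their symbols alone (Col, a type number, a and a chain number) in the GENCODE annotation of GRCm38. They were divided by type number into 11 fibrillar collagens, 6 type IV collagens and 27 others. Their transcripts were measured by RNA sequencing in the gastrocnemius, a calf muscle, of 10 male mice exposed to cigarette smoke. The 5 AHRfl mice carried floxed alleles of the gene of AHR, the aryl hydrocarbon receptor, which is activated by components of smoke, without a Cre transgene. The 5 AHRmKO mice carried the same alleles together with HSA-MCM, which expresses MerCreMer from the human ACTA1 promoter in myofibres, so the deletion was driven in myofibres and not in the other cells of the muscle. Both groups were on a C57BL6J background. Per the labels, smoke exposure began 4 weeks after the last injection of tamoxifen, the inducer of the recombinase, and lasted 16 weeks, with 2 sessions of 1 h on 5 days per week, at 220 ± 80 mg/m3. Muscle was taken 72 h after the last exposure, also per the labels. The study's main text differs from the labels on both times. It gives a range of harvest times that ends at 72 h, and a shorter interval between tamoxifen and smoke. Air-exposed mice were not analysed here.

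Collagen chains assemble in threes into a triple helix, and the chains of a type are often encoded by different genes. Types I, III and V form the fibrils of tendon and of the connective tissue around myofibres, type IV forms the network of basement membranes, and type VI forms beaded filaments between the 2 layers. In muscle most fibrillar collagen is made by fibroblasts, fibro-adipogenic progenitors and tendon cells, whereas type IV collagen is made by endothelial cells and other cells that rest on a basement membrane. In a piece of whole muscle, fewer cells of a type and less RNA per cell cannot be told apart.

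The libraries held between 30393035 and 37954388 counts. Values are CPM, counts scaled to the TMM-normalized library size, and a floor of 3 counts corresponded to between 0.0788 and 0.0927 CPM. Such limits cover counting error only, since reads carry no molecular identifiers. *Ahr*, the targeted gene, was at 3.13, 2.05, 1.64, 1.95 and 1.33 CPM in AHRfl mice 11, 12, 13, 15 and 33, and at 1.65, 2.17, 1.54, 1.63 and 0.927 CPM in AHRmKO mice 8, 9, 19, 22 and 34. The groups overlapped, and counts of a whole gene include the exons that Cre leaves in place. *Esr1*, whose hormone-binding domain is part of MerCreMer, was between 15.9 and 18.98 CPM in AHRfl and between 268 and 678 CPM in AHRmKO mice, so every library fell on the side of its label. All 10 libraries held at least 282 counts of each of 4 Y-linked genes, but 5 of them, AHRfl 11, 15 and 33 and AHRmKO 9 and 22, also held between 44 and 75 counts of *Xist*, a transcript of female cells, against at most 3 in the others. The presence of *Xist* counts was tried as a covariate.

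4 stretches of mouse sequence from RefSeq (GRCm38.p6) are shown for the collagen genes that the results turn on. The first is the overlap of the first exons of *Col4a1* and *Col4a2*, which are read in opposite directions from a common start region at chr8:11312805-11312826, and it is shown because the levels of the pair per length were nearly equal in each mouse.
Col4a1 and Col4a2 overlap, plus strand: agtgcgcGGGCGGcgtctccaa
The other 3 are stretches just upstream of the first exon, free of annotated exons. *Col3a1* (plus strand, chr1:45311288-45311537) is shown as a strongly expressed fibrillar gene, and *Col6a3* (minus strand, chr1:90843972-90844221) and *Col6a6* (minus strand, chr9:105828161-105828335) as the 2 chains of type VI with the lowest p values. Capitals mark a TATA box (TATAAA), a GC box (GGGCGG, or CCGCCC on the other strand) or the core to which AHR binds (GCGTG, or CACGC on the other strand).
Col3a1: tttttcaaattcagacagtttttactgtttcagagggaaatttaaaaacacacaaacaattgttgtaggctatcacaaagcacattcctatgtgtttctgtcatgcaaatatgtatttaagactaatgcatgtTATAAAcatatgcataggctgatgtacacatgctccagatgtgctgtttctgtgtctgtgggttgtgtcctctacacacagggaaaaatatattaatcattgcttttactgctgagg
Col6a3: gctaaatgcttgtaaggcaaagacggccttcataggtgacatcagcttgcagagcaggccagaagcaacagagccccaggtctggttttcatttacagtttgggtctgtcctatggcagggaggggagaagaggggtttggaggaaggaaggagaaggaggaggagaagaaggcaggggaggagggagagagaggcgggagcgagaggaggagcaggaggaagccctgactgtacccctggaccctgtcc
Col6a6: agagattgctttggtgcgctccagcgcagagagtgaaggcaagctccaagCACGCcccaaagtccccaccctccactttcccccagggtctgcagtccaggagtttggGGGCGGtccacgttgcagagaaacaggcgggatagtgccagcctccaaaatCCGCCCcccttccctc
The *Col4a1* and *Col4a2* overlap held 1 GC box, the *Col3a1* stretch held 1 TATA box and the *Col6a3* stretch held 0 of the motifs searched. The *Col6a6* stretch, the 175 exon-free bases of its 250-base window, held 2 GC boxes and 1 of the 3 AHR cores of that window.

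Promoter windows of 250 bases before a start were found in RefSeq for 35 of the 44 collagen genes, in 38 windows. *Col14a1*, *Col12a1*, *Col2a1*, *Col5a2*, *Col4a3*, *Col26a1*, *Col22a1*, *Col1a1* and *Col9a3* had no entry. The AHR core GCGTG, on either strand, was in 8 of 38 collagen windows, or 21.1%, and in 28.2% of the 32851 windows of all genes. The GC box GGGCGG, a motif of Sp1-like factors, was in 57.9% of the collagen windows and in 32.7% of all windows. CCAAT was in 34.2% and 33.8%, and TATAAA in 13.2% and 12.4%. By their letters an AHR core and a GC box can share an end base. All 8 genes with an AHR core were tested between the genotypes: *Col4a1*, *Col4a2*, *Col5a3*, *Col6a2*, *Col6a6*, *Col11a2*, *Col13a1* and *Col16a1*. Their median log2 fold change was -0.09, with 3 genes higher and 5 lower in AHRmKO, and that of the 20 tested genes whose window lacked the core was -0.07. A match of 5 letters is a description and not a site of binding.

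Of the 44 collagen genes, 35 passed the filter on low counts and were tested, namely all 11 fibrillar, all 6 type IV and 18 other collagens. The 9 that did not pass were *Col6a4*, *Col6a5*, *Col9a2*, *Col9a3*, *Col10a1*, *Col17a1*, *Col25a1*, *Col26a1* and *Col28a1*, which had between 0 and 18 counts in a mouse. Among them are cartilage collagens (types IX and X), the hemidesmosome collagen *Col17a1* and *Col25a1*, a transmembrane collagen of developing muscle. Levels of different genes were compared as RPKM, CPM per kilobase of exon. Per length, *Col4a2* took 15.8% and *Col4a1* 15.2% of all collagen transcripts on average over the mice. *Col1a1* took 9.69%, *Col6a1* 9.55%, *Col1a2* 8.59%, *Col3a1* 5.77%, *Col7a1* 5.72% and *Col6a2* 5.60%. These 8 genes together made up 76.0%. The order depends on the length used, since the annotated exons of *Col1a2* add up to 12426 bases. By the length of the principal transcript *Col1a2* was the highest, at 15.9 RPKM, followed by *Col4a1* and *Col4a2*. Fibrillar collagens held 34.2%, type IV collagens 31.7% and other collagens 34.1% of the total per length. The type IV share was between 21.4% and 36.5% in single mice, lowest in AHRmKO 22 and in AHRfl 15.

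**Figure D1:**
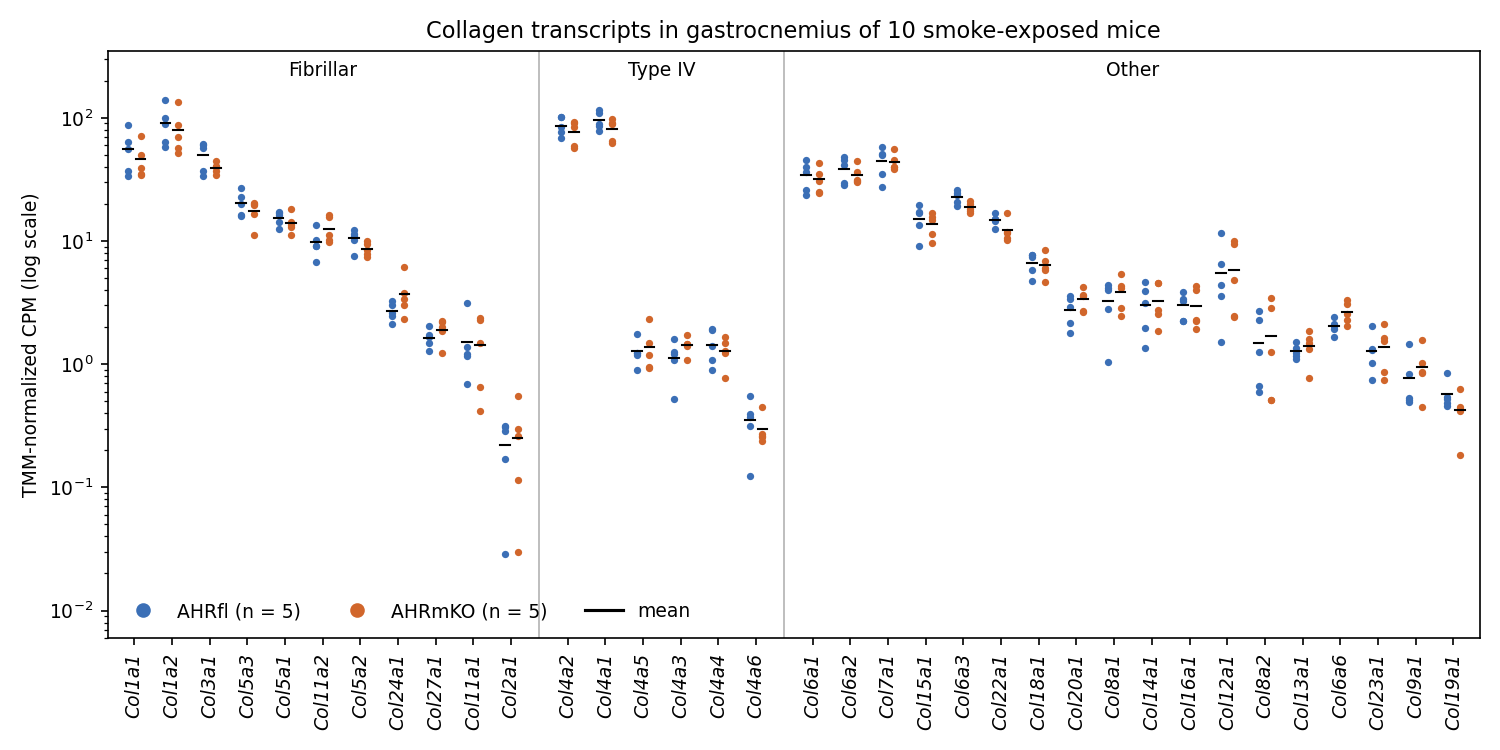
TMM-normalized CPM (log scale) of the 35 tested collagen genes in each mouse, by class and ordered within a class by mean RPKM. Points are single mice, 5 per genotype, and lines are means, and the AHRfl and AHRmKO points overlap for all 35 genes.

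The comparison of AHRmKO with AHRfl asked whether loss of AHR in myofibres went with another level of collagen transcripts after smoke exposure. By edgeR's quasi-likelihood test 0 of 35 collagen genes passed at an adjusted p of 0.05, where 1 of 14714 genes, *Esr1*, or 0.0068%, passed. That gene was higher in AHRmKO, and 0% of all genes passed in the lower direction. 3 of 35, or 8.57%, had an unadjusted p under 0.05, against 6.61% of all genes tested. These were 2 lower genes, *Col6a3* and *Col5a2* (3.38% of all genes), and 1 higher gene, *Col6a6* (3.23% of all genes). DESeq2, fitted without the filter, called 0 of the 23 collagen genes to which it gave an adjusted p. It gave an unadjusted p under 0.05 to 6 of 44 collagen genes. limma-voom called 0 of 35 and gave an unadjusted p under 0.05 to 3 of 35. The share of all genes at that unadjusted p was counted for edgeR only. The groups were free of overlap for 0 of the 35 genes, against 1.4% of all genes (0.686% higher and 0.714% lower). The lowest adjusted p of a collagen gene was 0.665.

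Of the 35 genes, 20 were lower and 15 higher in AHRmKO, and of all genes 48.5% were lower and 51.5% higher. The log2 fold changes lay between -0.44 and 0.47, with a median of -0.07 for the collagens and 0.01 for all genes. The 95% intervals reached between 0.20 and 1.38 to either side of the estimate, 0.48 at the median, and those of 28 genes lay wholly between -1 and 1. For the remaining 7 genes a change of 2-fold was within the interval.

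**Figure D2:**
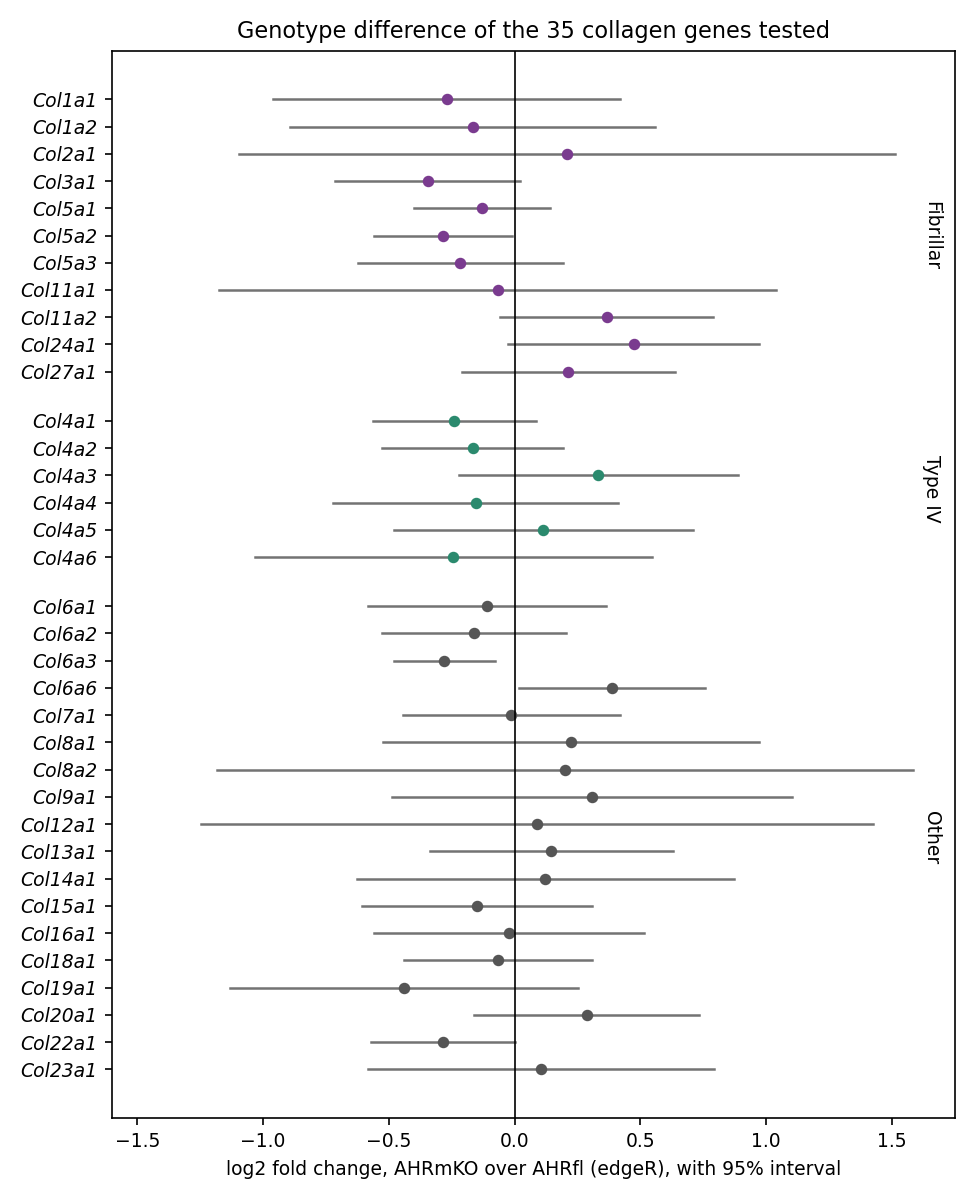
Log2 fold change of AHRmKO over AHRfl for the 35 tested collagen genes, with 95% intervals from edgeR, by class. Estimates lie between -0.44 and 0.47, and the intervals of 32 of the 35 genes include 0.

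Among the fibrillar collagens, 7 of 11 were lower and 4 higher in AHRmKO, with a median log2 fold change of -0.13. In edgeR 1 of 11, or 9.09%, had an unadjusted p under 0.05, against 6.61% of all genes tested. The chains of types I, III and V all averaged lower in AHRmKO. Of the fibrillar collagens of cartilage and of developing tissue, *Col2a1*, *Col11a2*, *Col24a1* and *Col27a1* averaged higher and *Col11a1* lower. The log2 fold changes of *Col2a1* (0.21, standard error 0.60) and *Col11a1* (-0.07, standard error 0.50) were small beside their errors. Without AHRfl 15 the median of the class was 0.04, and without AHRmKO 22 it was -0.30. With *Xist* as a covariate it was 0.0023.

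*Col1a1* (ENSMUSG00000001506, chr11:94936224-94953042) encodes the chain that occurs in 2 copies in the type I trimer, the main fibril of tendon and endomysium. It was at 55.8, 33.8, 37.3, 87.4 and 63.2 CPM in AHRfl 11, 12, 13, 15 and 33, and at 49.9, 39.4, 35.0, 71.3 and 34.4 CPM in AHRmKO 8, 9, 19, 22 and 34. AHRfl 15 and AHRmKO 22 were the highest of their genotypes, and the groups overlapped from end to end. The means were 55.5 ± 21.7 (SD, n = 5) and 46.0 ± 15.4 CPM (SD, n = 5), a log2 fold change of -0.27 (standard error 0.30, edgeR adjusted p = 0.910). This fold change was -0.05 without AHRfl 15 and -0.49 without AHRmKO 22, and it was -0.08 with *Xist* as a covariate. *Col1a2* (ENSMUSG00000029661), the partner chain, was at 88.7, 64.0, 58.2, 139 and 100.4 CPM in AHRfl mice and at 88.1, 70.0, 57.4, 134 and 51.7 CPM in AHRmKO mice in the same order. Its log2 fold change was -0.17 (standard error 0.32), and it was 0.04 without AHRfl 15.

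*Col3a1* (ENSMUSG00000026043, chr1:45311538-45349706), the homotrimeric collagen of fine reticular fibrils, was at 61.1, 33.9, 37.0, 57.0 and 60.3 CPM in AHRfl and at 40.5, 40.2, 36.7, 44.4 and 34.3 CPM in AHRmKO mice. AHRfl mice fell into 3 high and 2 low values, while the AHRmKO mice all lay between 34.3 and 44.4 CPM. The 3 high mice are the AHRfl libraries with *Xist* counts. *Col3a1* had a log2 fold change of -0.35 (95% interval -0.71 to 0.02, unadjusted p = 0.0634 and adjusted p = 0.774 from edgeR), and it was -0.21 with *Xist* as a covariate. 141 exon bases of *Col3a1*, or 1.44%, are shared with the predicted gene *Gm47302*.

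Type V collagen is a minor component that limits the width of type I fibrils. *Col5a2* (ENSMUSG00000026042, chr1:45374321-45503282) was the fibrillar gene with an unadjusted p under 0.05. It was at 12.3, 10.2, 7.59, 11.4 and 11 CPM in AHRfl and at 9.38, 8.44, 7.48, 9.94 and 7.77 CPM in AHRmKO mice. 4 of the 5 AHRfl mice lay above all 5 AHRmKO mice, and AHRfl 13 lay among the lowest. The log2 fold change was -0.28 (95% interval -0.56 to -0.01, unadjusted p = 0.0443, adjusted p = 0.738, edgeR), the two-sided exact permutation test gave p = 0.103, and with *Xist* as a covariate the log2 fold change was -0.22 (unadjusted p = 0.0707). Of the 10 fits that left out a mouse, the unadjusted p was under 0.05 in the 3 without AHRfl 13, AHRmKO 8 or AHRmKO 22. *Col5a1* was at 17.3, 12.5, 14.2, 16.1 and 16.9 CPM in AHRfl and at 14.4, 13.6, 11.2, 18.2 and 13.01 CPM in AHRmKO mice, and its log2 fold change was -0.13 (standard error 0.12) and, with *Xist* as a covariate, -0.07. *Col5a3*, the third chain of the type, had a log2 fold change of -0.22 (standard error 0.19).

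*Col11a2*, a chain of the cartilage fibril collagen of type XI, was at 6.77, 13.6, 9.17, 10.2 and 9.09 CPM in AHRfl and at 10.2, 9.79, 11.2, 16.1 and 15.7 CPM in AHRmKO mice. Its log2 fold change was 0.37 (95% interval -0.06 to 0.79, adjusted p = 0.792, edgeR), and the groups overlapped. *Col11a1*, which pairs with it in cartilage, ranged from 0.692 to 3.15 CPM in AHRfl and from 0.419 to 2.36 CPM in AHRmKO mice, a log2 fold change of -0.07 (standard error 0.50). *Col24a1* had the highest log2 fold change of the 35 genes, 0.47 (95% interval -0.02 to 0.97, unadjusted p = 0.0606), and AHRmKO 8, at 6.17 CPM, stood above the other mice, which lay between 2.13 and 3.77 CPM.

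Among the type IV collagens 4 of 6 were lower and 2 higher in AHRmKO, with a median of -0.16. In edgeR 0 of 6 had an unadjusted p under 0.05, against 6.61% of all genes tested. The median was -0.07 with *Xist* as a covariate. Without AHRfl 15 and AHRmKO 22 it was -0.0060 over the 5 genes that still passed the filter, which *Col4a6* did not. *Col4a1* (ENSMUSG00000031502, chr8:11198423-11312826) and *Col4a2* (ENSMUSG00000031503, chr8:11312805-11449287) encode the chains of the network found in every basement membrane. *Col4a1* was at 109, 85.4, 78.2, 89.3 and 116 CPM in AHRfl and at 98.4, 90.4, 62.4, 65.4 and 88.8 CPM in AHRmKO mice. The 2 lowest mice, AHRmKO 19 and 22, were AHRmKO and the 2 highest, AHRfl 33 and 11, were AHRfl, and the other mice were mixed. Its log2 fold change was -0.24 (95% interval -0.56 to 0.09, adjusted p = 0.815, edgeR). *Col4a2* was at 101, 68.6, 76.0, 83.4 and 101 CPM in AHRfl and at 92.4, 91.0, 58.5, 57.2 and 83.8 CPM in AHRmKO mice, a log2 fold change of -0.17 (95% interval -0.53 to 0.19).

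The other 4 type IV genes, whose chains form the networks of kidney, lung and smooth muscle basement membranes, were scarce. *Col4a3* averaged 1.13 ± 0.391 CPM in AHRfl and 1.43 ± 0.231 CPM in AHRmKO mice (SD, n = 5 each), and *Col4a4* 1.44 ± 0.472 and 1.29 ± 0.334 CPM. *Col4a5* averaged 1.27 ± 0.317 and 1.37 ± 0.572 CPM, and *Col4a6* 0.350 ± 0.153 and 0.295 ± 0.0856 CPM. None of the 4 had an unadjusted p under 0.05, and the narrowest 95% interval, that of *Col4a3*, ran from -0.22 to 0.89.

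Type VI collagen surrounds the myofibre and anchors its basement membrane to the fibrils. *Col6a3* (ENSMUSG00000048126, chr1:90765923-90843971), which encodes its longest chain, had the lowest unadjusted p of the collagen genes. It was at 25.7, 20.6, 19.1, 23.8 and 24.5 CPM in AHRfl and at 19.9, 16.98, 18.3, 20.98 and 17.6 CPM in AHRmKO mice. The 3 highest mice were AHRfl and the 3 lowest AHRmKO, with overlap between 19.1 and 20.98 CPM. The means were 22.8 ± 2.80 and 18.7 ± 1.67 CPM (SD, n = 5 each), a log2 fold change of -0.28 (standard error 0.09, 95% interval -0.48 to -0.08). The unadjusted p was 0.0101 and the adjusted p 0.665 in edgeR, and the two-sided exact permutation test gave p = 0.0397. Its unadjusted p was under 0.05 in each of the settings tried, and with *Xist* as a covariate the log2 fold change was -0.24. It also varied less between mice than the other tested collagens, with an SD within genotype of 0.157 on the log2 scale.

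*Col6a1* was at 36.1, 23.6, 25.9, 45.4 and 40.1 CPM in AHRfl and at 35.1, 30.7, 25, 43.2 and 24.5 CPM in AHRmKO mice, and *Col6a2* at 41.1, 28.5, 29.7, 48.2 and 45.4 and at 36.3, 31.1, 30.1, 44.6 and 30.5 CPM. These 2 chains, which pair with *Col6a3* in the usual type VI trimer, had log2 fold changes of -0.11 (standard error 0.21) and -0.16 (standard error 0.17) and overlapped throughout, and that of *Col6a2* was -0.05 with *Xist* as a covariate. *Col6a6* (ENSMUSG00000043719, chr9:105687809-105828160), an alternative to the *Col6a3* chain, was the tested collagen with an unadjusted p under 0.05 in the higher direction. It was at 2.13, 1.67, 1.92, 2.06 and 2.41 CPM in AHRfl and at 2.29, 3.09, 2.57, 3.34 and 2.03 CPM in AHRmKO mice. 3 AHRmKO mice lay above every AHRfl mouse and AHRmKO 34 and 8 lay among them. Its log2 fold change was 0.39 (95% interval 0.02 to 0.76, unadjusted p = 0.0416, adjusted p = 0.734, edgeR), and the two-sided exact permutation test gave p = 0.0556. With *Xist* as a covariate the log2 fold change was 0.45 (unadjusted p = 0.00753, edgeR). Of the 10 fits that left out a mouse, the unadjusted p of *Col6a6* was under 0.05 in the 3 without AHRfl 33, AHRmKO 8 or AHRmKO 34. The difference between *Col6a3* and *Col6a6* was not tested.

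*Col7a1*, the collagen of anchoring fibrils, was at 50.2, 57.7, 50.7, 27.6 and 35.0 CPM in AHRfl and at 38.3, 45.6, 39.6, 39.8 and 56.2 CPM in AHRmKO mice, a log2 fold change of -0.01 (standard error 0.20). It was lowest in AHRfl 15 and high in AHRfl 12 and AHRmKO 34, mice in which *Col1a1* was high, low and low in that order. Of the collagens of junctions, *Col22a1*, which lies at the myotendinous junction, was at 14.6, 15.1, 15.2, 17.02 and 12.5 CPM in AHRfl and at 16.9, 10.2, 10.5, 11.7 and 11.6 CPM in AHRmKO mice. 4 of the 5 AHRmKO mice lay below every AHRfl mouse and AHRmKO 8 lay near the top. The log2 fold change was -0.28 (95% interval -0.57 to 0.00, unadjusted p = 0.0517, adjusted p = 0.756, edgeR), and the unadjusted p was 0.0359 with *Xist* as a covariate. Without AHRmKO 8 the log2 fold change was -0.43 (unadjusted p = 0.000586, adjusted p = 0.513, edgeR). Among the fits that left out a single mouse, the unadjusted p of *Col22a1* was under 0.05 only without AHRfl 33 or AHRmKO 8. It was 0.124 in edgeR without AHRfl 15 and also without AHRmKO 9, with a log2 fold change of -0.23 in both. *Col13a1*, a transmembrane collagen of the neuromuscular junction, averaged 1.28 ± 0.162 and 1.41 ± 0.401 CPM (SD, n = 5 each), and its interval ran from -0.34 to 0.63. *Col15a1* and *Col18a1*, the multiplexins of the basement membrane zone, had log2 fold changes of -0.15 (standard error 0.21) and -0.07 (standard error 0.17), and with *Xist* as a covariate that of *Col15a1* was -0.03. *Col8a1* and *Col8a2*, short chain network collagens of vessel walls, had log2 fold changes of 0.23 (standard error 0.34) and 0.20 (standard error 0.62), and of 0.43 and 0.55 with *Xist* as a covariate.

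The other 9 tested collagens were 6 fibril-associated genes (*Col9a1*, *Col12a1*, *Col14a1*, *Col16a1*, *Col19a1* and *Col20a1*), the transmembrane gene *Col23a1* and the fibrillar genes *Col2a1* and *Col27a1*. Their log2 fold changes ran from -0.44 for *Col19a1* to 0.31 for *Col9a1*. None had an unadjusted p under 0.05, and *Col12a1*, a collagen of tendon and muscle fascia, ranged from 1.52 to 11.5 CPM within the AHRfl mice alone.

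Collagen levels varied widely between mice of a genotype. The SD within genotype on the log2 scale had a median of 0.386 over the 35 collagens and 0.209 over all genes, and 34 of the 35 collagens lay above that median gene. The most variable were *Col8a2* (1.11), *Col12a1* (1.02), *Col2a1* (0.996) and *Col11a1* (0.917). AHRfl 11, 15 and 33 were above the mean of the 10 mice for 27, 26 and 27 of the 35 genes, and AHRmKO 8 and 22 for 26 and 28. AHRfl 12 and 13 were above it for 8 and 5 genes and AHRmKO 19 and 34 for 7 and 6, with AHRmKO 9 at 17. Both genotypes therefore held mice of high and of low collagen. Of the mice of high collagen, AHRfl 11, 15 and 33 and AHRmKO 22 held *Xist* counts and AHRmKO 8 did not. All the mice of low collagen were without them, at no more than 3 counts, and AHRmKO 9 held them. The part of the *Xist* counts in this split was not tested.

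**Figure D3:**
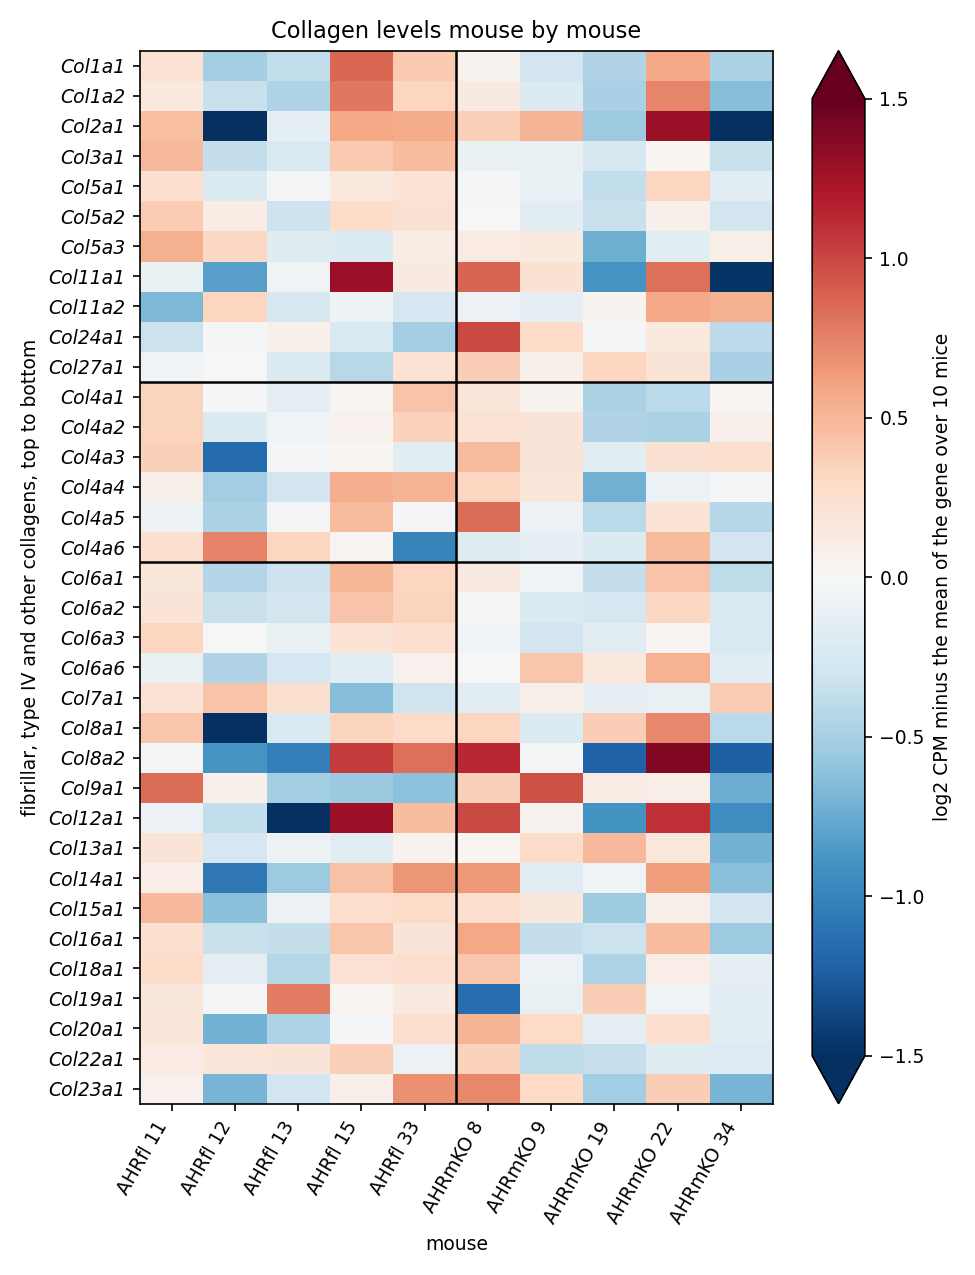
Log2 CPM of the 35 tested collagen genes in each mouse, minus the mean of the gene over the 10 mice, with fibrillar, type IV and other collagens separated by lines. AHRfl 11, 15 and 33 and AHRmKO 8 and 22 are above the mean for 26 to 28 of the 35 genes, and AHRfl 12 and 13 and AHRmKO 19 and 34 for 5 to 8.

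Summed over the class, fibrillar collagens were at 274, 196, 186, 344 and 287 CPM in AHRfl and at 244, 209, 176, 318 and 181 CPM in AHRmKO mice. Type IV collagens were at 214, 157, 158, 178 and 222 CPM in AHRfl and at 197, 186, 124, 127 and 177 CPM in AHRmKO mice. AHRfl 15 and AHRmKO 22 led the fibrillar sum but not the type IV sum, in which AHRmKO 22 was the second lowest. Other collagens were at 223, 177, 176, 222 and 215 CPM in AHRfl and at 210, 183, 161, 222 and 175 CPM in AHRmKO mice.

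The 7 tenocyte markers (*Scx*, *Tnmd*, *Mkx*, *Fmod*, *Thbs4*, *Kera* and *Comp*), all tested, summed to between 133 and 450 CPM in AHRfl and between 104 and 429 CPM in AHRmKO mice. AHRfl 15, at 450 CPM, and AHRmKO 22, at 429 CPM, were highest in both this sum and the fibrillar sum, and AHRmKO 8, at 310 CPM, was next. *Thbs4* was the marker with the highest level, and 4 of the 7 markers also stand in the list of collagen-binding proteins. The 8 markers of fibroblasts and fibro-adipogenic progenitors summed to between 237 and 457 CPM and were also highest in AHRmKO 22. The 8 markers of slow myofibres summed to 262, 94.8, 243, 2019 and 1274 CPM in AHRfl 11, 12, 13, 15 and 33. In AHRmKO 8, 9, 19, 22 and 34 they summed to 2395, 252, 594, 1716 and 308 CPM. AHRfl 15 and 33 and AHRmKO 8 and 22 thus held the highest sums of slow myofibre markers. The 7 endothelial markers summed to between 137 and 250 CPM. In the 5 libraries with *Xist* counts, fibrillar collagens summed to between 209 and 344 CPM, and in the 5 without to between 176 and 244 CPM. The part of these markers and of the *Xist* counts in the collagen levels was not tested. Without AHRfl 15 and AHRmKO 22 edgeR called 0 collagen genes and only *Col6a3* had an unadjusted p under 0.05.

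**Figure D4:**
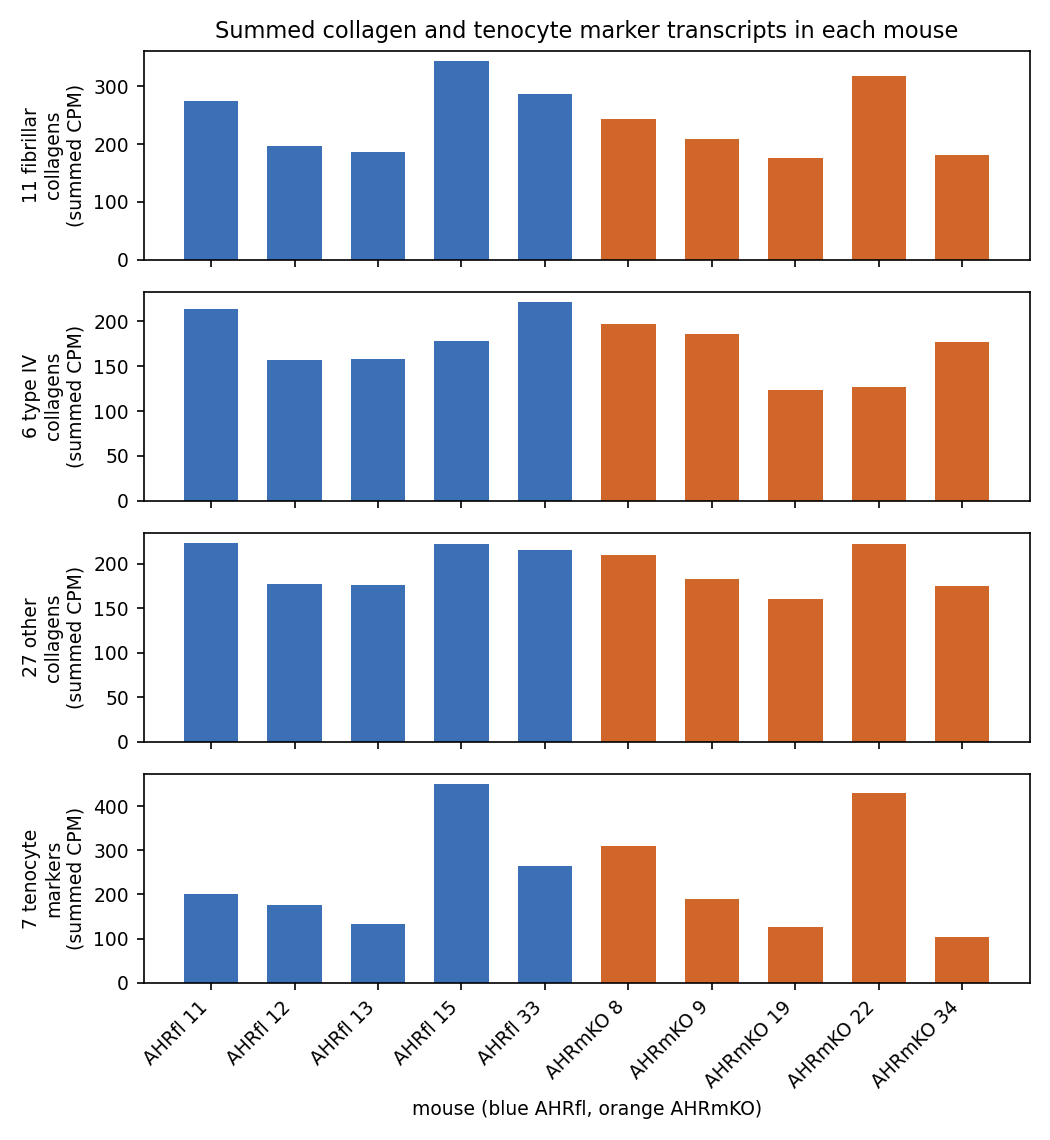
Summed CPM of the fibrillar, type IV and other collagens and of the 7 tenocyte markers in each mouse, with AHRfl in blue and AHRmKO in orange. AHRfl 15 and AHRmKO 22 are highest in the fibrillar sum (344 and 318 CPM) and in the tenocyte sum (450 and 429 CPM), whereas the highest type IV sum is that of AHRfl 33 (222 CPM).

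Chains that assemble into one trimer were compared across the 10 mice, in 10 pairs, on the log2 CPM scale. *Col1a1* and *Col1a2* rose and fell together (Pearson r = 0.97, permutation p = 1e-05, adjusted 6.67e-05, Spearman rho = 0.93, permutation p = 0.00035), as did *Col4a1* and *Col4a2* (r = 0.95, permutation p = 2e-05, adjusted 6.67e-05, rho = 0.96, permutation p = 6e-05) and *Col6a1* and *Col6a2* (r = 0.97, permutation p = 2e-05, adjusted 6.67e-05, rho = 0.94, permutation p = 0.00023). The smallest p these resamples can give is 1e-05. Without the 2 mice farthest from the median of the first gene, r was 0.95, 0.86 and 0.95. With each mouse set against the mean of its genotype it was 0.97, 0.95 and 0.97, and set against the mean of the libraries with or without *Xist* counts 0.94, 0.95 and 0.92. *Col1a1* and *Col1a2* lie on different chromosomes, while the other 2 pairs are neighbours on one chromosome, and *Col4a1* and *Col4a2* share the start region printed above. Chains of different types were not correlated with each other, so whether these correlations are particular to partner chains was not tested. *Col1a1* and *Col6a1*, which are not partners, also shared their highest mouse, AHRfl 15, and their lowest, AHRfl 12.

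*Col6a2* and *Col6a3* (r = 0.78, permutation p = 0.0102, adjusted 0.0255, rho = 0.61, permutation p = 0.0654) and *Col5a1* and *Col5a2* (r = 0.73, permutation p = 0.0214, adjusted 0.0428, rho = 0.66, permutation p = 0.0444) passed the threshold by Pearson r. By Spearman rho neither pair passed, with an adjusted permutation p of 0.109 for each. Without the 2 mice farthest from the median of the first gene, over 8 mice, r was 0.65 and 0.72 and the adjusted permutation p 0.125 and 0.119. *Col6a1* and *Col6a3* (r = 0.67, adjusted permutation p = 0.0673), *Col8a1* and *Col8a2* (r = 0.58, adjusted permutation p = 0.0788) and *Col4a3* and *Col4a4* (r = 0.49, adjusted permutation p = 0.185) did not pass. *Col4a4* and *Col4a3* also start head to head, 72 bases apart, and *Col4a6* and *Col4a5* start 1309 bases apart. *Col4a5* and *Col4a6* had r = -0.09 (adjusted permutation p = 0.802) and *Col11a1* and *Col11a2* r = -0.26 (adjusted permutation p = 0.524). *Col11a1* was highest in AHRfl 15 and lowest in AHRmKO 34, while *Col11a2* was high in AHRmKO 34 and AHRmKO 22.

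**Figure D5:**
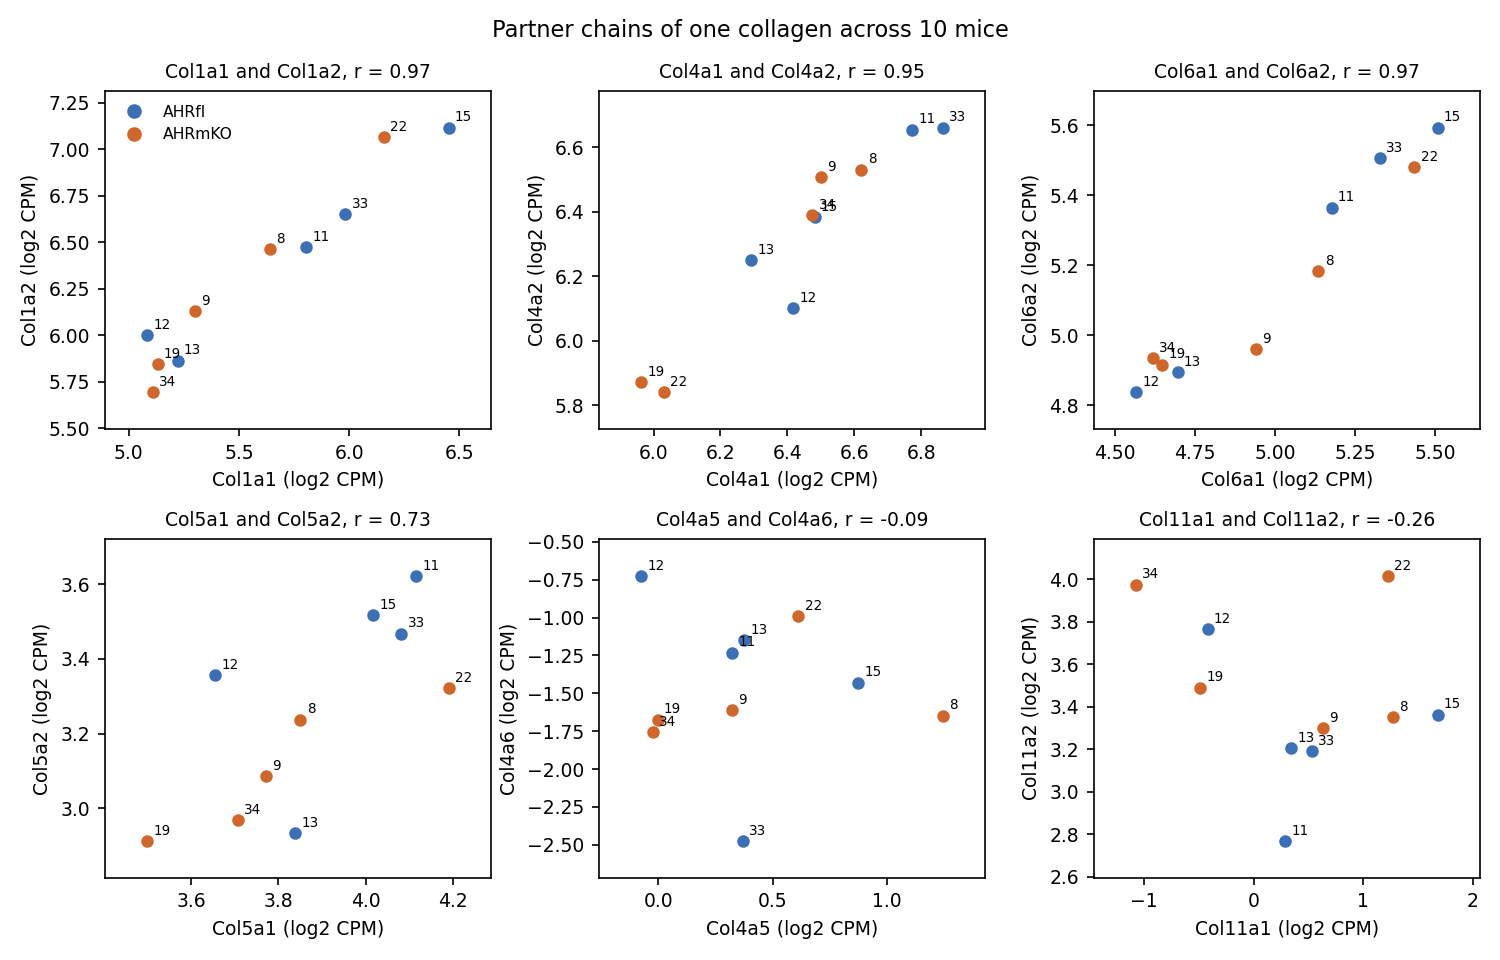
Log2 CPM of 6 pairs of partner chains in the 10 mice, each point labelled with the animal number and coloured by genotype. *Col1a1* with *Col1a2*, *Col4a1* with *Col4a2* and *Col6a1* with *Col6a2* lie along a line (r = 0.97, 0.95 and 0.97), and *Col4a5* with *Col4a6* and *Col11a1* with *Col11a2* do not (r = -0.09 and -0.26).

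The ratio of *Col4a2* to *Col4a1* per length was 1.04 ± 0.0649 (SD, n = 10), between 0.905 and 1.13 in single mice. That of *Col1a2* to *Col1a1* was 0.886 ± 0.0736 by the length of all exons and 1.86 by the principal transcript, and that of *Col6a2* to *Col6a1* 0.590 ± 0.0435 and 1.16. The exact two-sided permutation test of the ratio between the genotypes passed in 0 of 10 pairs. Its lowest p was 0.0873 (adjusted 0.615), for *Col4a4* to *Col4a3*, at 1.27 ± 0.413 in AHRfl and 0.837 ± 0.121 in AHRmKO mice (SD, n = 5 each, exact permutation).

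The genes that make, modify and bind collagen were read from lists chosen by function. Of 13 tested hydroxylases and glycosyltransferases, led by *P4hb*, 8 were lower and 5 higher in AHRmKO, and of 10 chaperones and export factors 7 were lower and 3 higher, with 0 genes at an unadjusted p under 0.05 in either list. *P4hb*, the shared subunit of prolyl 4-hydroxylase, averaged 189 ± 19.9 CPM in AHRfl and 172 ± 11.3 CPM in AHRmKO mice (SD, n = 5 each), and *Serpinh1*, the collagen chaperone, 47.6 ± 12.7 and 47.5 ± 12.5 CPM. Of 10 tested genes of procollagen processing and cross-linking 8 were lower and 2 higher, and *Lox*, which cross-links collagen, averaged 8.85 ± 2.03 and 7.52 ± 2.41 CPM (SD, n = 5 each). None of these lists held a gene with an adjusted p under 0.05, and their medians were -0.04, -0.03 and -0.08 in that order.

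Among the 8 tested collagen receptors, 4 were lower and 4 higher, and 2, or 25% (6.61% of all genes), had an unadjusted p under 0.05. *Itgb1*, the beta chain shared by the collagen-binding integrins, was at 178, 173, 177, 187 and 173 CPM in AHRfl and at 171, 150, 167, 154 and 168 CPM in AHRmKO mice. The groups did not overlap, as for 1.4% of all genes, and the nearest mice were AHRfl at 173 and AHRmKO at 171 CPM. The log2 fold change was -0.13 (standard error 0.06, unadjusted p = 0.0414, adjusted p = 0.734, edgeR), and the two-sided exact permutation test gave p = 0.00794, the smallest it can give. *Ddr1*, a receptor kinase for fibrillar and type IV collagens, averaged 13.6 ± 1.34 and 11.7 ± 1.21 CPM (SD, n = 5 each), with overlap and a log2 fold change of -0.21 (unadjusted p = 0.0421, adjusted p = 0.735, edgeR).

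Of 11 basement membrane partners 3 were lower and 8 higher, with a median of 0.03. *Lama2*, the laminin chain of the myofibre basement membrane, was at 27.1, 24.02, 28.3, 28.8 and 26.8 CPM in AHRfl and at 22.98, 22.6, 18.5, 24.5 and 23.3 CPM in AHRmKO mice. 4 of 5 AHRfl mice were above every AHRmKO mouse, and AHRfl 12 was below AHRmKO 22. Its log2 fold change was -0.27 (standard error 0.08, unadjusted p = 0.00532, adjusted p = 0.606, edgeR). *Lamb2*, the highest of the list, averaged 112 ± 10.9 and 116 ± 8.72 CPM (SD, n = 5 each). Of 16 collagen-binding proteins 6 were lower and 10 higher, and of 13 regulators in the TGF-beta pathway, the main inducer of collagen transcription in fibroblasts, 4 were lower and 9 higher, with 0 genes at an unadjusted p under 0.05 in either list. *Sparc* averaged 154 ± 24.8 and 141 ± 9.65 CPM and *Smad3* 80.8 ± 17.7 and 91.6 ± 21.1 CPM (SD, n = 5 each).

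In the marker lists, 0 of 74 tested genes had an adjusted p under 0.05 and 4, or 5.41%, an unadjusted p under 0.05, against 6.61% of all genes. *Scx*, the tendon transcription factor that drives fibrillar collagen genes, was at 6.17, 7.53, 6.23, 7.09 and 5.75 CPM in AHRfl and at 3.99, 3.61, 2.71, 4.55 and 6.04 CPM in AHRmKO mice. 4 of the 5 AHRmKO mice were below every AHRfl mouse, and AHRmKO 34 was not. *Scx* had a log2 fold change of -0.65 (standard error 0.18, unadjusted p = 0.00294, adjusted p = 0.606, edgeR), and the other 6 tenocyte markers had unadjusted p of at least 0.05. Of the 7 tenocyte markers 5 were higher in AHRmKO and 2 lower, with a median of 0.05. Of the 4 tested markers of the myotendinous junction 2 were lower and 2, *Ankrd1* and *Maml2*, higher (0.02 and 0.07). *Tigd4* and *Slc24a2*, markers of myonuclei at the myotendinous junction, had log2 fold changes of -0.44 (unadjusted p = 0.00275, adjusted p = 0.606) and -0.80 (unadjusted p = 0.00199, adjusted p = 0.606) in edgeR, and *Chrna1*, the muscle acetylcholine receptor subunit, 0.22 (unadjusted p = 0.0159, adjusted p = 0.665). *Slc24a2* was at 1.93, 1.96, 2.00, 1.54 and 1.70 CPM in AHRfl and at 1.42, 0.977, 0.913, 0.684 and 1.26 CPM in AHRmKO mice, without overlap, as for 1.4% of all genes.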

How the data were processed

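Total RNA from the gastrocnemius was poly(A)-selected and sequenced as paired reads. Per the labels and the study's methods, the authors used Trimmomatic 0.36 for trimming, STAR 2.5.2b for alignment to GRCm38 and featureCounts for unique reads on exons, and deposited the raw counts per Ensembl gene, 1 column per mouse, neither normalized nor pooled. Whether counting used strand and which Ensembl release was used are not given in the sources used here.

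Symbols, positions and exon lengths came from GENCODE M21, which holds 49056 of the 49315 identifiers. The test was that of edgeR 4.0.16 in R 4.3.3 (filterByExpr at a count of 10 and a total of 15, TMM, quasi-likelihood test with robust estimation, Benjamini-Hochberg adjustment over 14714 genes). Intervals are at 95%. Log2 CPM used a prior count of 2. RPKM is CPM per kilobase of the union of exons. Single genes were also compared by exact permutation over the 252 assignments of 5 and 5 mice, and partner chains by permutation with 100000 resamples. Reads from genes that share exon bases cannot be told apart, and 13 collagen genes share up to 6.07% of their exon bases with another gene.

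The rule for naming genes took the 3 genes of each class with the highest RPKM, genes with an unadjusted p under 0.05 or groups free of overlap, partner chains and collagens of junctions and the basement membrane zone, and genes of the lists with an unadjusted p under 0.05 or the highest level. Not every list gene under the rule is given in each mouse: *Ddr1*, *Tigd4* and *Chrna1* have only means or fold changes. The highest genes of several lists, such as *Mia3*, *Pcolce*, *Dcn*, *Cldn5* and *Myl3*, are left out. *Col24a1* and *Serpinh1*, *Lox* and *Col12a1* were chosen after their values were seen, and scarce or widely overlapping chains are given as means or ranges. The collagen genes and all lists were chosen with earlier results of these data known. Alternatives were DESeq2 1.42.0, limma-voom (limma 3.58.1), 1 surrogate variable (sva 3.50.0), other scalings and filters, and leaving out each mouse. Leaving out AHRfl 15 and AHRmKO 22, the presence of *Xist* counts (at least 10) as a covariate and the principal transcript length were added after seeing the data. The steps were tested on counts simulated for all 14714 genes, not for the collagens alone. At an adjusted p of 0.05 edgeR called 24 of 67 genes given a log2 change of 0.5 in either direction. It called 49 of 67 genes given a change of 1, 62 of 66 given a change of 2, and 6 of 14514 left unchanged. No 2 libraries held the same counts. The labels do not give litters, so the p-values treat each mouse as independent and take no account of shared litters.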

Additional observations from a re-analysis of the deposited data

Results flagged for a closer look

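For 3 of 76 sets of 5 values (35 collagen genes and 3 class sums in each genotype) 1 mouse stood apart from the other 4 of its genotype by Dixon's criterion, on the log2 CPM scale, where chance flags about 1 in 20 sets, or 3.8 of 76. *Col4a6* in AHRmKO 22 lay above the others with a gap of 0.806 of the range, *Col19a1* in AHRfl 13 above with a gap of 0.745, and *Col22a1* in AHRmKO 8 above with a gap of 0.725.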

How the results depend on the processing

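The adjusted count of collagen genes was 0 in each setting, with a lowest adjusted p of 0.203. No paired analysis was possible because the animal numbers in the labels are not shared between the genotypes. Over all genes 1 gene was called, 21 by DESeq2, 5 without a filter on low counts, and from 1 to 6 when single mice were removed (6 without AHRmKO 34). The unadjusted count of collagen genes, 3, was 6 by DESeq2, 1 with library size only, 5 without a filter, 7 with 1 surrogate variable, 1 without AHRfl 15 and AHRmKO 22, and from 1 to 4 when single mice were removed (1 without AHRfl 11 or AHRfl 15). The share of all genes at that unadjusted p, 6.61%, was counted for the main edgeR fit only. The counts of collagen genes in the other settings therefore have no share of all genes to be read against. The number of the 35 collagen genes lower in AHRmKO, 20, was 25 with 1 surrogate variable and 15 with *Xist* as a covariate.

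When single mice were removed, the median log2 fold change ran from -0.30 to 0.045 for fibrillar, from -0.22 to -0.05 for type IV and from -0.13 to 0.18 for other collagens. Of 478 values of the 24 named collagen genes, 26 values, of 8 genes, changed direction. Outside the fits with a mouse left out these were *Col7a1* with limma-voom (0.022) and 1 surrogate variable (0.11), *Col4a5* (-0.036) and *Col8a2* (-0.14) with 1 surrogate variable, *Col11a1* without AHRfl 15 and AHRmKO 22 (0.15), and, with *Xist* as a covariate, *Col1a2* (0.0023), *Col6a1* (0.026), *Col11a1* (0.12) and *Col18a1* (0.0091). With a mouse left out the range was -0.43 to 0.045 for *Col1a2*, -0.16 to 0.27 for *Col4a5*, -0.25 to 0.014 for *Col6a1*, -0.14 to 0.10 for *Col7a1*, -0.0042 to 0.35 for *Col8a1*, -0.22 to 0.52 for *Col8a2*, -0.32 to 0.38 for *Col11a1* and -0.19 to 0.031 for *Col18a1*. Without the 2 mice farthest from the median, r was 0.72 for *Col5a1* and *Col5a2*, 0.65 for *Col6a2* and *Col6a3*, and 0.070 for *Col11a1* and *Col11a2*. The cause was not tested. Depth limits the 9 untested collagens, with at most 18 counts in a mouse.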
